A study of Mus musculus with 12 samples.

Results

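Chp1 was examined together with 9 genes for enzymes of glycerolipid synthesis in RNA of whole mouse adrenal glands. The 10 genes are Chp1, the acyltransferases Gpam, Agpat1, Agpat2, Agpat3 and Agpat5, the lipins Lpin1 and Lpin2, and Dgat1 and Dgat2, found by symbol among the 24421 genes of the authors' table. Chp1 was selected on its difference between the conditions compared here in an earlier analysis of the same table, and the other 9 were chosen by function with those results known, so the values of all 10 are given as a description without a test. All 10 had a mean normalized count of 10 or more, as did 14305 genes in all.

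The glands came from 2-month-old female mice on a mixed sv129-C57BL/6 background, with 4 control, 4 Abca1 cKO and 4 Abcg1 cKO libraries. Both cKO groups carried a Cre recombinase driven by the aldosterone synthase gene Cyp11b2, which acts in cells of the cortical lineage, while the RNA also came from medulla, vessels and other cells. Abcg1 cKO mice carried in addition 2 conditional Abcg1 alleles (Abcg1 tm1Tall), from which Cre removes the third exon, and Abca1 cKO mice carried 2 conditional Abca1 alleles (Abca1 tm1Jp). Control littermates carried the Cre allele alone per the labels, whereas the methods also allow controls with 1 conditional allele instead. The study compared Abcg1 cKO with control and Abca1 cKO pooled, and asked how loss of this cholesterol exporter changes the adrenal transcriptome.

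Values are the authors' mean normalized counts of a condition, over 4 libraries for Abcg1 cKO and over 8 for the combined control and Abca1 cKO condition. The columns of single libraries could not be matched to samples by name and were not used, so no difference is set against the spread between animals here, and control cannot be told apart from Abca1 cKO. A log2 ratio is Abcg1 cKO over the combined condition after adding 1 to each mean, positive where Abcg1 cKO was higher. A gene is called higher or lower past a 1.2-fold difference (0.26 on the log2 scale), the fold used by the study. The study also set a cutoff on the adjusted P-value, which was not applied here, so these calls are not those of the study. The means summed to 18889571 in Abcg1 cKO and 18311615 in the combined condition. Counted over the whole gene, Abcg1 stood at 250 in Abcg1 cKO against 305 in the combined condition, and Abca1 at 10057 and 7791, a comparison in which the combined condition holds the Abca1 cKO libraries.

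Glycerolipid synthesis starts from glycerol 3-phosphate, to which GPAT enzymes add a first acyl chain to give lysophosphatidic acid. AGPAT enzymes add the next chain to form phosphatidic acid, lipins remove its phosphate to give diacylglycerol, and DGAT enzymes add the last chain to make triglyceride, while other branches lead from the same intermediates to membrane phospholipids. CHP1 is an EF-hand calcium-binding protein that binds other proteins as a cofactor, and in human cells it binds and activates GPAT4, a GPAT enzyme of the endoplasmic reticulum. Adrenocortical cells store lipid droplets that are rich in cholesteryl esters, whereas adipocytes store triglyceride and express this pathway strongly.

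Promoters are shown for the genes past 1.2-fold that had one in the RefSeq promoter table (GRCm38.p6), so that the stretch ahead of each start site can be read beside the values. Of the 10 genes 7 had an entry, with 11 windows in all, and Agpat5, Dgat1 and Dgat2 had none. Each line gives the 250 bases before the annotated start, written 5′ to 3′ on the strand of the gene, with capitals for a match on either strand to the CCAAT box, the GC box GGGCGG or the nuclear receptor core AGGTCA. The stretch of Chp1 is chr2:119547457-119547706 (plus strand), that of Gpam chr19:55127239-55127488 (minus strand, the start at the 5′ end of the annotated gene), that of Agpat2 chr2:26604418-26604667 (minus strand) and that of Lpin1 chr12:16610967-16611216 (minus strand).
Chp1: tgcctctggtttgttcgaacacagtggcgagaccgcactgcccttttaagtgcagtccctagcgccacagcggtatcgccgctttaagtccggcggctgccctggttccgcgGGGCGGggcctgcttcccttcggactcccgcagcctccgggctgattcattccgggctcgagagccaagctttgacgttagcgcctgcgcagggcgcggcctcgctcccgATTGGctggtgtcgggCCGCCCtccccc
Gpam: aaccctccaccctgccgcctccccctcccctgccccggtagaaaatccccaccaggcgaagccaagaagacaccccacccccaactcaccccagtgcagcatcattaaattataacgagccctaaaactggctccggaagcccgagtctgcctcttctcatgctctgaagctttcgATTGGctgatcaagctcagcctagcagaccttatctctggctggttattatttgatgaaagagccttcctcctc
Agpat2: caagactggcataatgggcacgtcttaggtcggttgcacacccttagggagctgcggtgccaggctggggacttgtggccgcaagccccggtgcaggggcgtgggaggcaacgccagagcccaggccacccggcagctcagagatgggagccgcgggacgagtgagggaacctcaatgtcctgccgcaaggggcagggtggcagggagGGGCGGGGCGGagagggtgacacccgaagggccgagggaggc
Lpin1: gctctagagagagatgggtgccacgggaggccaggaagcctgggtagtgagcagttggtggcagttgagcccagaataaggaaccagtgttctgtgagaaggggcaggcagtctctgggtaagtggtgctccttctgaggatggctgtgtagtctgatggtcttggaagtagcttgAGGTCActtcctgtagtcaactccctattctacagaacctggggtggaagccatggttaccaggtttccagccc

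In the Chp1 stretch a CCAAT box lay on the opposite strand 28 bases before the start. GGGCGG boxes lay 138 bases before the start and, on the opposite strand, 12 bases before it. The Agpat2 stretch held a pair of overlapping GGGCGG boxes 42 and 37 bases before the start. The Gpam stretch held a CCAAT box on the opposite strand 74 bases before the start, and Lpin1 the nuclear receptor core AGGTCA 74 bases before it. The other window of Gpam, not printed, held a GGGCGG box and an AGGTCA core instead. Over full windows, which reach 50 bases past the start, CCAAT was found in 4 of the 11 windows against 37.4% of 32851 promoters, GGGCGG in 7 against 35.7%, AGGTCA in 3 against 16.3% and the E-box CACGTG in 1, of Lpin2, against 7.15%. Neither the sterol regulatory element TCACNCCAC, held by 1.24% of promoters, nor the SF-1 site CAAGGTCA, which contains AGGTCA and is held by 1.56%, was found in any of the 11. A match or its lack describes these letters in this window and says nothing of factor binding.

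Chp1 had the highest ratio of the 10 genes. Its mean normalized count was 5933 in Abcg1 cKO and 3907 in the combined condition, a 1.52-fold higher level (log2 ratio 0.60), and 355 of 14305 genes (2.48%) had a larger ratio. Chp1 lies on the plus strand of chromosome 2 of GRCm38 (mm10) from 119547697 to 119587027, with 7 exon blocks in GENCODE, and no other annotated gene overlaps it. The acyltransferase genes lie in the same build with Gpam on chromosome 19 from 55067268 to 55127238 (minus strand), Agpat1 on chromosome 17 from 34604262 to 34613449 (plus strand), Agpat2 on chromosome 2 from 26593057 to 26604417 (minus strand), Agpat3 on chromosome 10 from 78269178 to 78352489 (minus strand) and Agpat5 on chromosome 8 from 18846277 to 18891361 (plus strand). The lipin genes lie with Lpin1 on chromosome 12 from 16535669 to 16610966 (minus strand) and Lpin2 on chromosome 17 from 71182560 to 71249817 (plus strand), and the DGAT genes with Dgat1 on chromosome 15 from 76502015 to 76511953 (minus strand) and Dgat2 on chromosome 7 from 99153658 to 99182719 (minus strand).

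The relative Tesc and the partner Gpat4 had smaller ratios than Chp1. Tesc, which like Chp1 encodes an EF-hand calcium-binding protein, stood at 3216 and 2927 (log2 ratio 0.14). Gpat4, listed in the table under its older symbol Agpat6, stood at 2784 and 2527 (log2 ratio 0.14). Chp2, another relative, had an overall mean under 10 and was not compared.

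**Figure D1:**
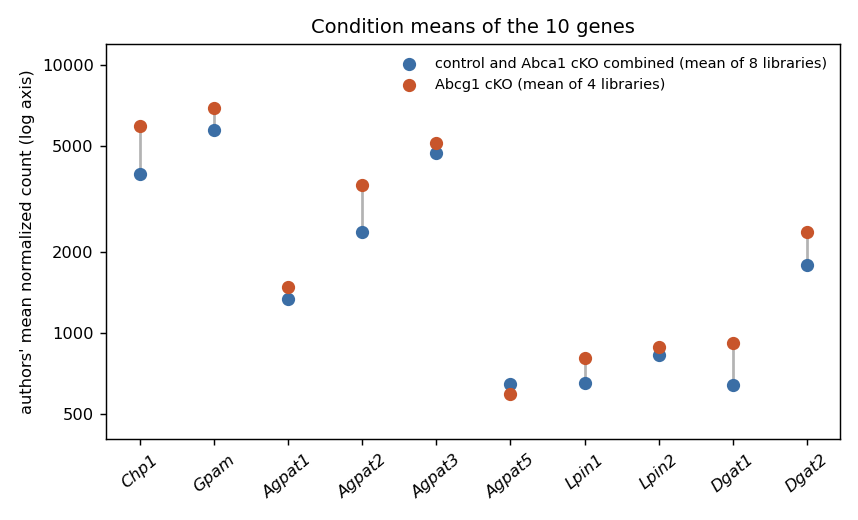
Authors' mean normalized count of each of the 10 genes on a log axis, in control and Abca1 cKO combined (blue, mean of 8 libraries) and in Abcg1 cKO (orange, mean of 4 libraries), joined by a line. No error bars are drawn because the spread between animals was not computed. The orange point is the upper one for 9 genes, with Chp1 at 5933 against 3907, and the lower one for Agpat5.

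By direction, 6 of the 10 genes were higher past 1.2-fold in Abcg1 cKO, none was lower, and 4 lay within it. Among all 14305 genes 10.4% were higher and 12.2% lower by the same rule, and among the 6914 genes with a mean of 500 or more, as all 10 had, 7.48% were higher and 2.99% lower. The 6 were Chp1, Agpat2, Dgat1, Dgat2, Lpin1 and Gpam, and the 4 within were Agpat1, Agpat3, Lpin2 and Agpat5. The median log2 ratio of the 10 genes was 0.29, with a range from -0.12 to 0.60, against 0.00 over all 14305 genes. Past 1.5-fold, 2 of the 10 were higher, Chp1 and Agpat2, and none lower, beside 2.59% higher and 3.26% lower of all genes. Because Chp1 was selected on this contrast and the rest were chosen with it known, these counts are no evidence about the genes as a group.

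**Figure D2:**
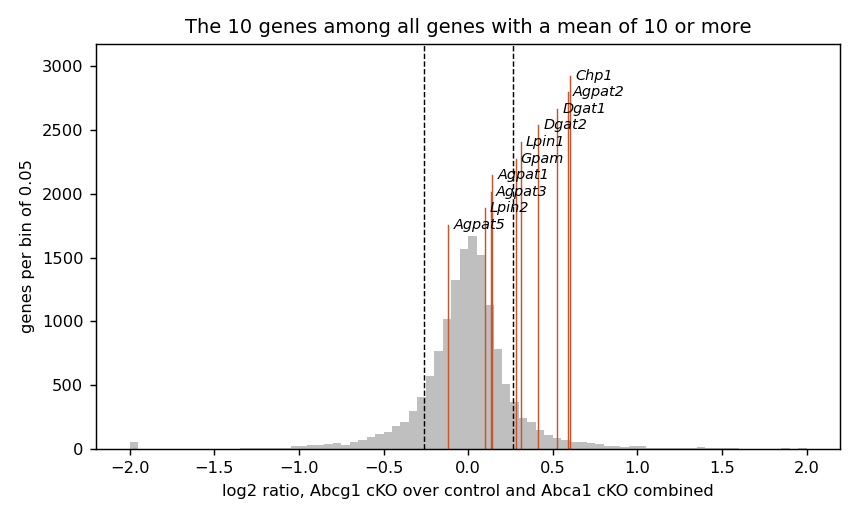
Number of genes per bin of 0.05 in log2 ratio for the 14305 genes with a mean of 10 or more (grey, with genes beyond -2 or 2 in the end bins), with an orange line at the ratio of each of the 10 genes and dashed lines at 1.2-fold. Agpat5 sits at -0.12, Lpin2, Agpat3 and Agpat1 between 0.10 and 0.14, and Chp1 farthest to the right at 0.60.

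At the first acylation, Gpam had the most abundant transcript of the 4 GPAT genes. Gpam encodes the mitochondrial GPAT1 and is a known target of SREBP1 in liver. Its mean was 6930 in Abcg1 cKO and 5709 in the combined condition (log2 ratio 0.28, or 1.21-fold), just past the 1.2-fold line, and its log2 ratio was 0.235, within that line, when both condition means were scaled to the same total. Per kilobase of exon, the scale on which genes can be compared with each other, Gpam stood at 1040 in Abcg1 cKO against 857 in the combined condition, ahead of Gpat4 at 417 and 378. Gpat3, listed as Agpat9 and abundant in adipocytes, was low at 131 and 77.8 normalized counts but had the larger ratio (log2 ratio 0.74), and Gpat2 was under a mean of 10. Gpam thus made up 69.5% of the level per kilobase of the 4 GPAT genes in Abcg1 cKO and 68.0% in the combined condition.

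At the second acylation, Agpat2 stood apart from its relatives. Agpat2 encodes an acyltransferase of the endoplasmic reticulum whose loss in humans causes generalized lipodystrophy. Its mean was 3572 in Abcg1 cKO and 2373 in the combined condition (log2 ratio 0.59, or 1.51-fold), and 366 of 14305 genes (2.56%) had a larger ratio, next to 355 for Chp1. Agpat1, which is broadly expressed, stood at 1480 and 1340 (log2 ratio 0.14), and Agpat3, which shows preference for polyunsaturated acyl chains, at 5133 and 4680 (log2 ratio 0.13). Agpat5, found at mitochondria, was the only one of the 10 with a lower mean in Abcg1 cKO, at 592 and 642 (log2 ratio -0.12). Of the other enzymes listed for this step, Agpat4 had a log2 ratio of -0.12 and Lclat1, which remodels cardiolipin, one of 0.04.

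Per kilobase of exon Agpat2 was already the leading gene of this step, at 1114 in the combined condition and 1677 in Abcg1 cKO. Its share of the level of the 6 genes was 42.6% in the combined condition and 51.3% in Abcg1 cKO, while Agpat3 held 23.0% and 20.1% and Agpat1 17.1% and 15.1%. Exons of Agpat2 share 64 bases (3.00% of its exon length) with Egfl7, an endothelial gene on the opposite strand, and Egfl7 had a log2 ratio of -0.42. Exons of Agpat1 share 3.37% of their length with Egfl8, also opposite, and those of Agpat5 share 18.9% with the antisense transcript Gm35934, which has no entry of its own in the table. The libraries were stranded, but whether counting used the strand is not stated, so reads in these overlaps could belong to either gene.

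**Figure D3:**
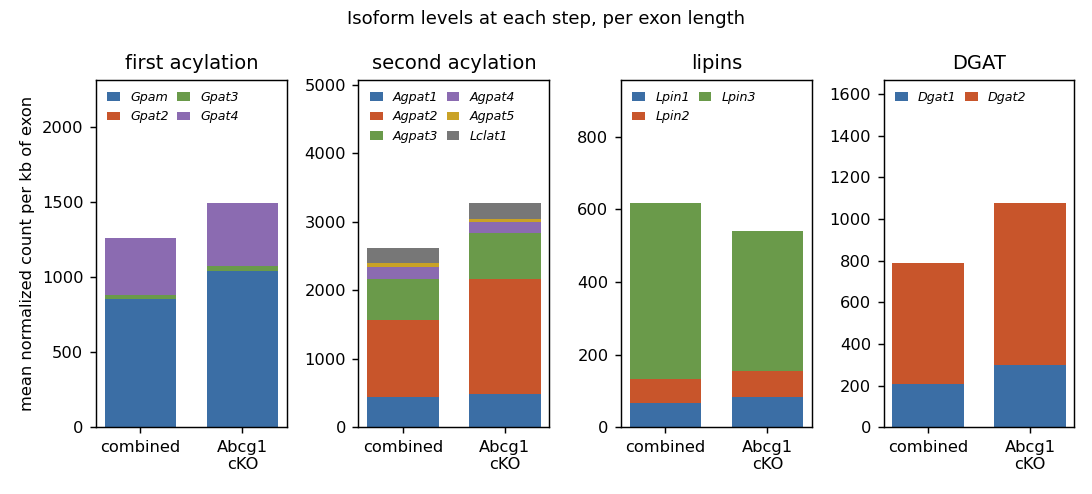
Mean normalized count per kilobase of exon of the genes at each of 4 steps, stacked, in the combined condition (left bar) and Abcg1 cKO (right bar), each panel with its own axis from 0. Agpat2 takes 42.6% of the second acylation panel in the combined condition and 51.3% in Abcg1 cKO, and Lpin3 takes most of the lipin panel in both.

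Among the lipins, the 3 relatives differed in direction. Lpin1, a phosphatidate phosphatase that is abundant in fat and muscle and also acts as a transcriptional co-regulator, stood at 803 in Abcg1 cKO against 648 in the combined condition (log2 ratio 0.31, or 1.24-fold). Lpin2, prominent in liver, stood at 883 and 825 (log2 ratio 0.10). Lpin3, which was not among the 10 genes, was lower in Abcg1 cKO, at 1425 and 1785 (log2 ratio -0.32). Per kilobase of exon, Lpin3 held 78.2% of the lipin level in the combined condition and 71.3% in Abcg1 cKO, and Lpin1 10.9% and 15.4%. The summed lipin level per kilobase was therefore 541 in Abcg1 cKO and 618 in the combined condition (log2 ratio -0.19), although both lipins of the 10 genes had higher means. Exon lengths over all annotated transcripts were 3694 bases for Lpin3, 9665 for Lpin1 and 12233 for Lpin2. The shares and the sum thus give Lpin3 more weight than its counts do, and their size depends on these lengths. The phosphatases of the other family at this step, Plpp1, Plpp2 and Plpp3, had log2 ratios of 0.00, -0.03 and 0.23.

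At the last step the transcripts of both enzymes had higher means in Abcg1 cKO. Dgat1, which sits in the membrane of the endoplasmic reticulum and also esterifies other acyl acceptors such as retinol, stood at 921 in Abcg1 cKO against 639 in the combined condition (log2 ratio 0.53, or 1.44-fold). Dgat2, an unrelated enzyme that also acts at lipid droplets, stood at 2388 and 1793 (log2 ratio 0.41, or 1.33-fold). Larger ratios were found for 465 genes (3.25%) in the case of Dgat1 and for 728 (5.09%) in that of Dgat2. Dgat2 stood at 72.0% of their summed level per kilobase in Abcg1 cKO and 73.6% in the combined condition. Mogat1, which makes diacylglycerol from monoacylglycerol, was low at 40.8 and 15.1 normalized counts (2.59-fold), and Mogat2 was under a mean of 10.

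Ordered by level per kilobase of exon in the combined condition, Chp1 at 1117 and Agpat2 at 1114 came first, followed by Gpam at 857, Agpat3 at 601, Dgat2 at 581, Agpat1 at 447 and Dgat1 at 209. Lpin2, Lpin1 and Agpat5 came last at 67.4, 67.0 and 59.5. In Abcg1 cKO Chp1 at 1696 and Agpat2 at 1677 again led, Dgat2 at 775 stood above Agpat3 at 659, and Lpin1 at 83.1 stood above Lpin2 at 72.2. Neighbours in these orders were not compared, since no spread was computed. Exon lengths are those of GENCODE, and the annotation used for counting may differ from it.

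The rest of the pathway was read from lists of 77 genes, which include the 10, and 60 other genes of these lists passed a mean of 10. Of the 60, 13 were higher, 5 lower and 42 within 1.2-fold, with a median log2 ratio of 0.12, beside 10.4% higher and 12.2% lower and a median of 0.00 over all 14305 genes. Among the 6914 genes with a mean of 500 or more, 7.48% were higher and 2.99% lower, with a median of 0.03. The lists hold genes on both sides of that mean. Upstream of the first acylation, Gpd1, the cytosolic enzyme that makes glycerol 3-phosphate and is plentiful in fat, stood at 7351 in Abcg1 cKO against 5078 in the combined condition (log2 ratio 0.53). Gk, listed as Gyk, which makes it from glycerol, had a log2 ratio of 0.26, just within 1.2-fold, and Gpd1l one of 0.12. Of the 4 genes listed for this supply, 3 had ratios above 0 and 1 below it, at -0.15.

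Over all 14305 genes 10.4% were higher and 12.2% lower, and at a mean of 500 or more 7.48% and 2.99%. The list counts that follow are to be read beside these shares. In the CDP-diacylglycerol branch 1 of 7 genes was higher and 1 lower, with a median log2 ratio of 0.09. The higher one was Cds1 at 0.35, and the lower one was Tamm41, which makes CDP-diacylglycerol in mitochondria, at -0.28. Of 13 genes for phosphatidylcholine, phosphatidylethanolamine and phosphatidylserine synthesis 2 were higher and none lower, with a median of 0.07. These were Pcyt2, the rate-limiting enzyme of the CDP-ethanolamine route, at 0.33, and Chpt1, the cholinephosphotransferase, at 0.32. Among 8 lysophospholipid acyltransferases 2 were lower and none higher (median 0.09), namely Mboat1 at -0.66 and Mboat2 at -0.33.

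Several genes of triglyceride storage had log2 ratios above 1, and the counts given here stand beside 10.4% higher and 12.2% lower of all genes. At a mean of 500 or more these shares were 7.48% and 2.99%. Of 6 genes of triglyceride hydrolysis 2 were higher, Ces1d at 1.14 and G0s2, an inhibitor of the lipase ATGL, at 0.71, whereas Pnpla2, which encodes ATGL, stood at 0.21 and the median was 0.22. Of 11 lipid droplet genes 5 were higher and 1 lower, with a median of 0.20. The higher ones were Cidea at 1.28, Cidec at 1.18, Plin4 and Plin1 at 0.58 and Fitm2 at 0.33, and the lower one was Hilpda, a hypoxia-inducible droplet protein, at -0.42. Plin2, which coats droplets in many cell types including steroidogenic cells, stood at 6088 in Abcg1 cKO against 6490 in the combined condition (log2 ratio -0.09).

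**Figure D4:**
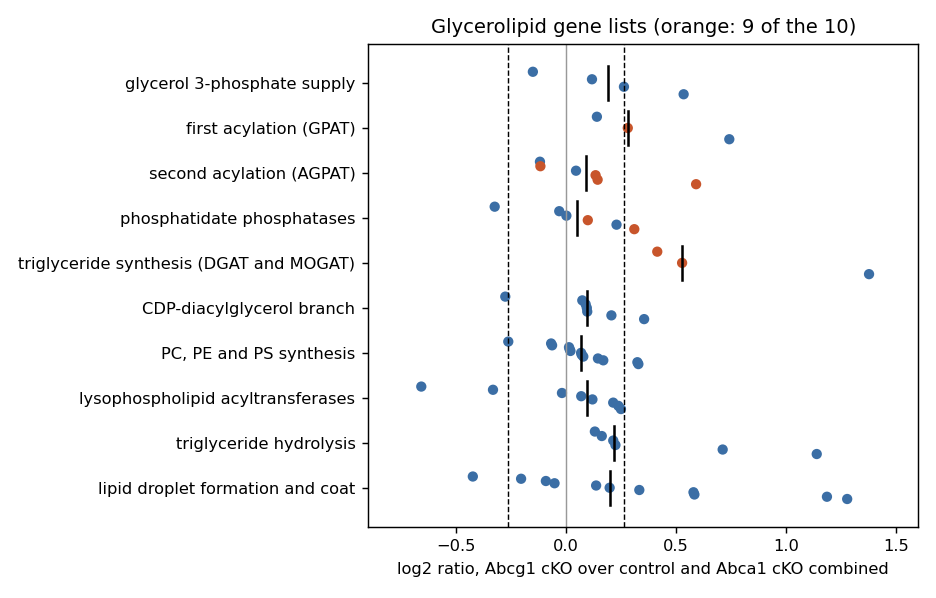
log2 ratio of each gene with a mean of 10 or more in 10 glycerolipid lists, with 9 of the 10 genes (all but Chp1) in orange, other genes in blue, the list median as a black bar and dashed lines at 1.2-fold. PC, PE and PS stand for phosphatidylcholine, phosphatidylethanolamine and phosphatidylserine. Mogat1, with a 2.59-fold higher mean, and Cidea at 1.28 lie farthest to the right and Mboat1 at -0.66 farthest to the left.

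Markers of adipocytes also differed between the conditions, in glands that the protocol describes as cleaned of adherent fat. All 11 adipocyte markers were higher past 1.2-fold in Abcg1 cKO, beside 10.4% of all genes. Log2 ratios of the 11 ran from 0.37 to 2.58 with a median of 1.14, and none of the 11 was at 0 in either condition. Their summed mean was 46646 in Abcg1 cKO and 21123 in the combined condition. Adipoq, the adipocyte hormone adiponectin, stood at 2818 and 1019 (log2 ratio 1.47), Car3 at 15787 and 5138 (log2 ratio 1.62) and Lep at 119 and 19.1 (log2 ratio 2.58). Plin1, Cidec and Cidea belong to both the droplet list and the adipocyte markers. Of the genes with higher means, Agpat2, Dgat1, Dgat2, Lpin1, Gpam, Gpat3 and Gpd1 are known to be strongly expressed in fat. The part of fat tissue in those means was not tested. Of the 6 triglyceride hydrolysis genes 2 were higher and 4 lay within 1.2-fold, among them Lipe at 0.16 and Mgll at 0.13. In whole glands fewer or more cells of a type cannot be told apart from less or more RNA per cell.

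Other tissues of the gland differed as well, while over all genes 10.4% were higher and 12.2% lower. At a mean of 500 or more, which all chromaffin and adrenocortical markers had, 7.48% were higher and 2.99% lower. All 8 markers of medullary chromaffin cells were higher (median log2 ratio 0.40), among them Pnmt at 0.83 and Th at 0.77, and their summed mean was 178582 in Abcg1 cKO and 131363 in the combined condition. Of 9 markers of adrenocortical cells 6 were higher and none lower past 1.2-fold (median 0.30), with Scarb1, the HDL receptor, at 0.77. Star stood at 0.44 and Nr5a1 at 0.12, whereas 2 of the 9 were below 0, Hsd3b1 at -0.15 and Mc2r at -0.07. Hsd3b1 had a mean of 434588 in Abcg1 cKO against 482180 in the combined condition. Summed means of the 9 were 1735610 in Abcg1 cKO and 1495360 in the combined condition, so markers of the labelled tissue were present in both. The paper reports Scarb1 as upregulated by quantitative PCR in Abcg1 cKO adrenals against control, a comparison without Abca1 cKO glands. It also states that transcripts of genes for steroidogenic conversions were not affected. By fold alone, Cyp11a1, Cyp11b1 and Cyp21a1 were past 1.2-fold here, at 0.30, 0.31 and 0.30, and Hsd3b1 was not. These calls apply no cutoff on an adjusted P-value and use the combined condition, so they do not test that statement. The zona glomerulosa markers Cyp11b2, Dab2 and Agtr1b lay within 1.2-fold. Endothelial, macrophage and capsule markers had medians of -0.02, -0.04 and 0.05, with 1 of 14 past 1.2-fold, Cd68 at -0.30. All 5 lymphocyte markers with a mean of 10 or more were lower (median -0.90), at means of 27.5 or less, and the liver genes Alb and Apoa1 stood at 62.1 and 6.34 in Abcg1 cKO against 781 and 103 in the combined condition. The part of these differences in the values of the 10 genes was not tested.

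**Figure D5:**
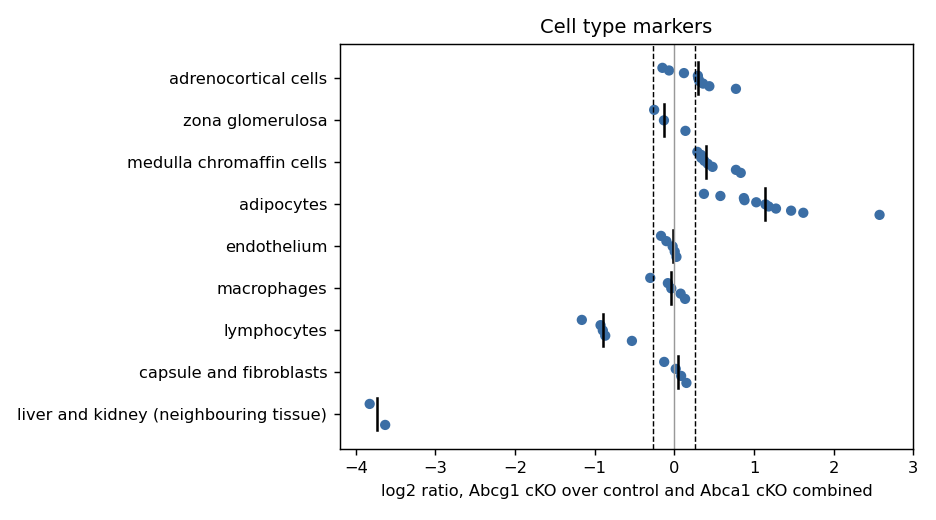
log2 ratio of each cell type marker with a mean of 10 or more, with the median of a list as a black bar and dashed lines at 1.2-fold. Adipocyte markers lie from 0.37 to 2.58 and medullary markers from 0.29 to 0.83, all to the right of 1.2-fold, and lymphocyte and liver markers lie to the left of it.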

How the data were processed

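RNA of whole adrenals cleaned of adherent fat was sequenced from polyA-selected, stranded libraries. According to the methods and the submitters' notes, the authors used bcl2fastq 2.20.0.422, cutadapt 4.0, FastQC 0.11.9 and BBTools on the reads, STAR 2.7.10a for alignment to the mm10 genome, HTSeq 0.13.5 for gene counts from unique alignments and DESeq2 1.38.3 for normalization. Both NovaSeq and NextSeq instruments served, without a statement of the one used for each library.

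The values used are the signal columns the authors deposited, the mean normalized count of each condition and over all libraries. The overall mean equalled the weighted mean of both conditions, with weights of 8 and 4, to within 6.67e-05. The table also holds the authors' own comparison columns, with fold changes, their standard errors and p-values, which were not used, and 12 columns of single libraries whose names match no sample label, which were not used either. The design had planned tests over libraries. None was run, because the single-library columns could not be assigned to samples by name, so the values given here carry no error, p-value or replicate check, and the raw depth per library is unknown.

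log2 ratios took a pseudocount of 1, which understates differences of low genes, and were kept where the overall mean reached 10, and calls used a fold of 1.2. The arithmetic of ratios and calls was tested on simulated data, condition means without noise, which says nothing of replicate error. Genes were named by rule: all 10 genes, the targeted genes, and for each list the 2 to 4 largest ratios, with others named for their role after their values were seen. The 10 genes and all lists were chosen with earlier results of these data known. Of the listed genes, 7 were found under an older symbol through RefSeq synonyms. Positions and exon lengths came from GENCODE for GRCm38, the build of mm10, and promoters from RefSeq for GRCm38.p6. A planned search of protein motifs was not run. 1 listed gene outside the 10 is not reported here by itself. Alternatives were pseudocounts of 0.1 and 10, centring on the median, a fold of 1.5, no filter, a mean of 50 or more and, added after the data were seen, a mean of 500 or more and scaling to equal totals. Tables were handled in Python 3.11.15 with pandas 2.3.3.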

Additional observations from a re-analysis of the deposited data

How the results depend on the processing

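Pseudocounts of 0.1 and 10 and centring on the median of all genes left the direction and the side of 1.2-fold of all 10 genes as they were. Scaling both condition means to the same total, chosen after the data were seen, shifted the median of all genes to -0.04 and kept every direction, but moved Gpam to a log2 ratio of 0.235, under 1.2-fold, and Lpin1 to 0.26, still just past it. The number of the 10 genes that were higher, 6, was then 5, and it was 2 at a fold of 1.5, while none was lower under any setting. With no filter on low values 18.6% of all genes were lower past 1.2-fold. The medians of the lymphocyte and liver markers came to -0.51 and -3.12 with a pseudocount of 10, and that of the triglyceride synthesis list to 0.67 with no filter. No paired analysis was possible because the names of the single-library columns match no sample label, so that these columns were not used and only condition means, which carry no replicate numbers, remained. Leaving out single libraries, the contrasts of the 3 groups, control alone as the reference and tests per gene need the single libraries too and were not run.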
